A study of Mus musculus with 10 samples.

Results

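The genes described here encode the machinery that copies DNA in S phase and the factors that supply it. They were chosen by name, 37 in all, and 36 of the 18193 genes with a probe set of a single symbol in the deposited table were among them. Each was represented by the probe set with the highest mean over the 10 arrays, and Chaf1a was not analysed here. Of these, 30 were bright enough to be tested (among the upper 60% of probe sets by mean) and 6 were not.

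The arrays measured whole-lung RNA of C57BL/6J mice at the age of 2 weeks, 1 Affymetrix Mouse 430 2.0 array per mouse. Pups of the smoke group (6 arrays) had been exposed with their dam to cigarette smoke from 1 day of age, 1 hour daily for 7 days and 2 hours daily for the next 7, with particulate matter averaging 90 mg/m3. The control group (4 arrays) breathed filtered air, away from the exposed mice. Sex is unknown in the labels, and neither litter nor array batch is given, so all p-values below measure the spread between these arrays. The question was which lung genes differ after neonatal smoke exposure.

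Replication starts when the origin recognition complex, with Cdc6 and Cdt1, loads the ring-shaped Mcm2-7 helicase onto DNA before S phase. Cyclin E kinase and Mcm10, Cdc45 and the GINS complex then switch the helicase on, and polymerases, the Pcna clamp and its loader copy the strands. The lung of a mouse at this age is still forming alveoli, and many of its cells divide. Most of these genes are transcribed under E2F factors at the G1 to S boundary.

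Over all 10 arrays, 0 of the 30 tested genes passed as higher after smoke and 0 as lower, at an adjusted p under 0.05 (limma, Benjamini-Hochberg over all 27022 probe sets tested), where 0.0224% of 13382 genes were higher and 0.702% lower. Before adjustment, at the same threshold, Tipin and Rrm2 were higher (2 of 30) and 0 were lower, beside 5.75% of all genes higher and 4.47% lower. In Tipin alone did all 6 smoke arrays lie above all 4 controls, and no gene lay wholly below, whereas 1.97% of all genes lay wholly above and 2.11% wholly below. The median log2 change, smoke minus control, was 0.19 over the 30 genes and 0.056 over all genes. It was above 0 in 22 of the 30 and in 56.9% of all genes. The smoke arrays also differed among themselves. In the probe sets representing them, Rrm2, Mcm2, Ccne1, Mcm5 and Cdt1 were above every control on smoke arrays 1 to 4. They were not on smoke arrays 5 and 6. No other tested probe set of these genes showed this split.

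**Figure D1:**
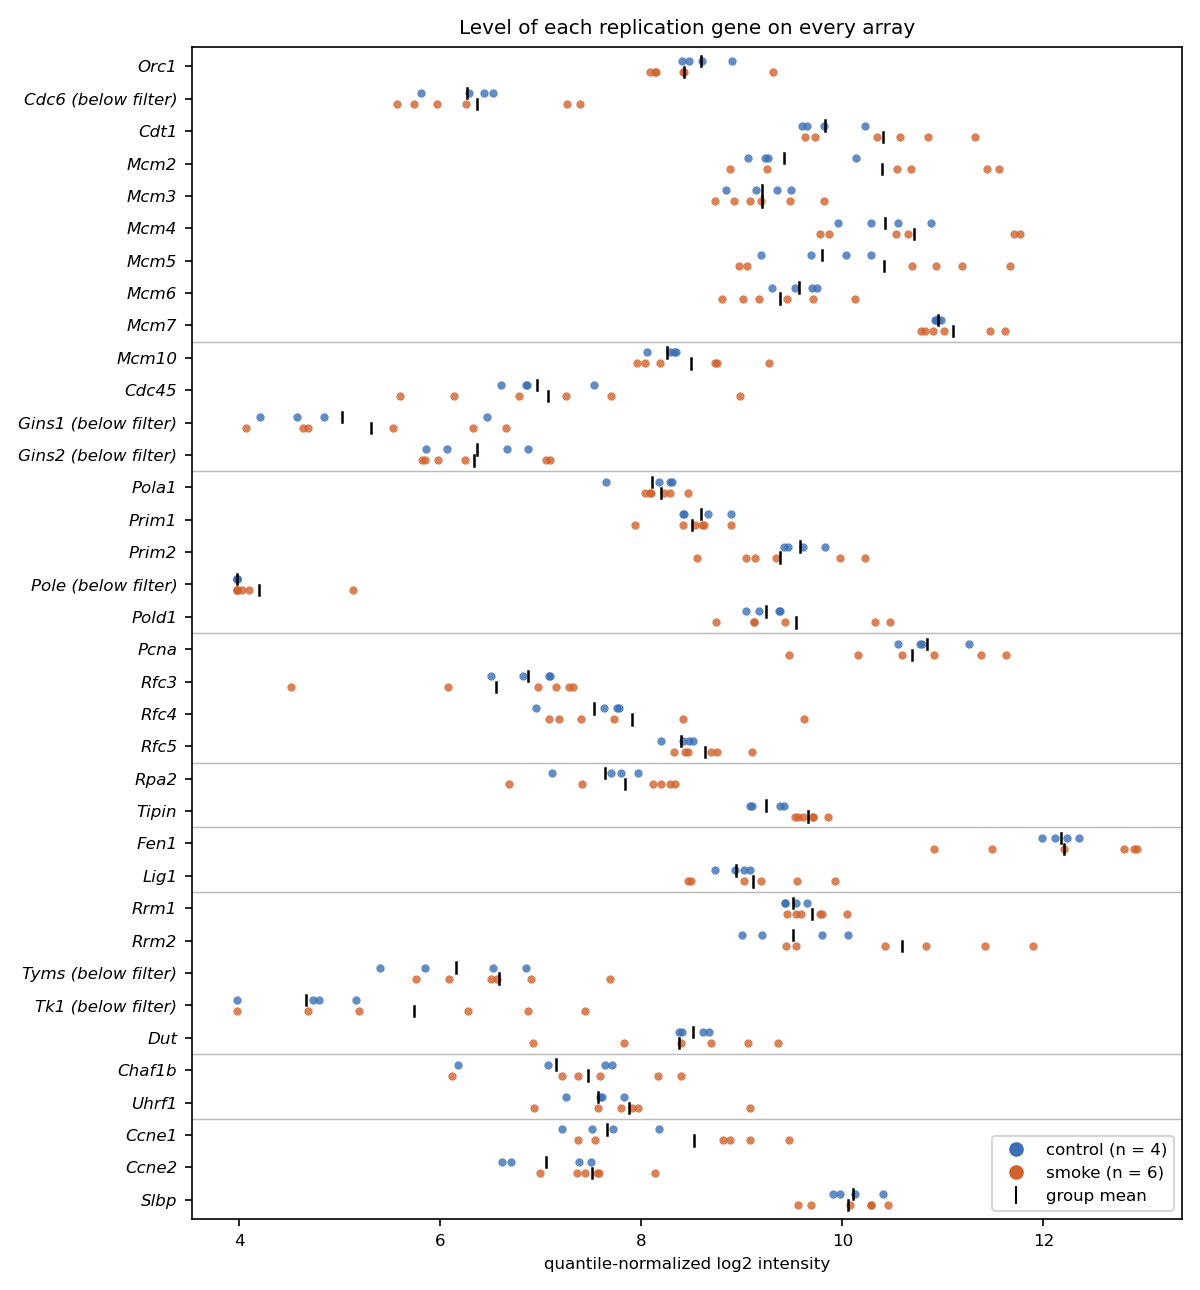
Quantile-normalized log2 intensity (x axis) of the 36 measured replication genes (y axis, ordered by role and divided by grey lines) on the 4 control arrays (blue) and 6 smoke arrays (orange), with the group mean as a black bar. The points of the 2 groups are apart for Tipin only. For Mcm2, Mcm5, Rrm2 and Ccne1, 4 smoke points lie above all controls and the other 2 within or below them.

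Facts of the whole data set bear on these values. Markers of lung epithelium were high on every array, with a mean log2 intensity of 12.40 to 13.30 over 7 tested markers, among them Sftpc, the surfactant protein C gene, at 14.38 in controls and 14.42 after smoke. The ratio of the actin signal at the 3′ end to that at the 5′ end, which is higher where RNA is shorter or less completely copied, was 3.96 to 10.4 in controls. It was 31.6 and 29.4 on smoke arrays 1 and 2, 9.26 and 10.3 on smoke arrays 3 and 4, and 2.18 and 2.98 on smoke arrays 5 and 6. Xist, transcribed from the inactive X chromosome of female cells, was at 13.96 to 14.09 on control arrays 2 and 4 and smoke arrays 5 and 6, and at 8.25 to 9.38 on the others. In RNA from whole lung, fewer cells of a type and less RNA per cell cannot be told apart.

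Of the 9 genes that license origins, 8 were tested, 6 had a log2 change above 0 and the median was 0.22. Mcm2, a subunit of the helicase ring, had log2 intensities of 9.23, 10.14, 9.26 and 9.06 on the 4 control arrays, and of 8.88 at the lowest, 10.61 at the median and 11.56 at the highest in the smoke group. Smoke arrays 1 and 2 were the highest, at 11.56 and 11.44, arrays 3 and 4 followed at 10.54 and 10.69, and array 5 lay below every control. The log2 change was 0.97 ± 0.51 (SE) (adjusted p = 0.544), a fold of 1.96 (95% interval 0.907 to 4.24).

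Mcm5, another subunit, gave 9.69, 10.04, 10.28 and 9.19 in controls and 8.97 at the lowest, 10.81 at the median and 11.66 at the highest after smoke. Its 4 smoke arrays 1 to 4 lay above all controls and its smoke arrays 5 and 6, at 8.97 and 9.05, below all of them. The change was 0.62 ± 0.52 (SE) (adjusted p = 0.710). Cdt1, the loader of the ring, measured 9.60, 9.82, 10.23 and 9.65 in controls and 9.63 at the lowest, 10.46 at the median and 11.32 at the highest after smoke. Again 4 of 6 smoke arrays were above every control in the probe set representing it, and arrays 5 and 6 fell within the control range. Its change was 0.58 ± 0.32 (SE) (adjusted p = 0.560).

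The subunits Mcm7 and Mcm6 did not share this pattern. Mcm7 was at 10.99, 10.96, 10.93 and 10.93 in controls, the tightest of the tested genes, and at 10.78 at the lowest, 10.95 at the median and 11.62 at the highest after smoke, with 3 smoke arrays above and 3 below all controls. Mcm7 had a change of 0.15 ± 0.19 (SE) (adjusted p = 0.812). Mcm6 was at 9.75, 9.53, 9.70 and 9.30 in controls and 8.80 at the lowest, 9.31 at the median and 10.13 at the highest after smoke, and 1 smoke array was above and 3 below every control. For Mcm6 the change was -0.19 ± 0.26 (SE) (adjusted p = 0.824), the lowest among licensing genes. Values were 0.30 ± 0.40 for Mcm4, 0.00031 ± 0.24 for Mcm3 and -0.17 ± 0.26 for Orc1, the largest subunit of the origin recognition complex, and their groups overlapped.

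Among factors that activate the helicase, 2 of 4 were tested and neither passed. Mcm10 had levels of 8.32, 8.34, 8.06 and 8.28 in controls and 7.96 at the lowest, 8.46 at the median and 9.27 at the highest after smoke, with 3 smoke arrays above every control and 2 below. Its change was 0.24 ± 0.27 (SE) (adjusted p = 0.789). Cdc45, the helicase's partner, ran from 5.60 on smoke array 2 to 8.98 on smoke array 1, the widest span of the tested genes, against 6.60 to 7.53 in controls, and its change was 0.11 ± 0.56 (SE).

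Polymerase and primase genes were split in the probe sets representing them, with 2 of 4 tested genes above 0 and a median of 0.00036. Pold1, the catalytic subunit of polymerase delta, gave 9.38, 9.17, 9.37 and 9.04 in controls and 8.74 at the lowest, 9.27 at the median and 10.47 at the highest after smoke. Smoke arrays 1 and 2 stood at 10.47 and 10.33, and the other 4 at 9.43 or lower. The change was 0.29 ± 0.33 (SE) (adjusted p = 0.789). The other tested probe set of Pold1 gave -0.20 ± 0.20 (SE). There smoke arrays 1 and 2, at 8.18 and 7.95, were below every control (at least 8.20). Prim2, the large primase subunit, gave 9.45, 9.61, 9.83 and 9.42 in controls and 8.56 at the lowest, 9.24 at the median and 10.23 at the highest after smoke. Here 2 smoke arrays were above every control and 4 below every control, and the change was -0.20 ± 0.30 (SE) (adjusted p = 0.844). Pola1, of polymerase alpha, was at 0.097 ± 0.20 and Prim1, the catalytic primase subunit, at -0.096 ± 0.22. The other tested probe set of Prim1 gave 0.40 ± 0.44.

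The genes of the clamp and its loader did not all go the same way within the smoke group. Pcna, the sliding clamp that holds polymerases to DNA, was lowest on smoke arrays 1 and 2, at 9.47 and 10.15, and highest on smoke arrays 5 and 6, at 11.63 and 11.38. Controls lay between, at 10.56 to 11.26, and the change was -0.16 ± 0.37 (SE) (adjusted p = 0.904). Mcm2 and Mcm5, by contrast, were high on smoke arrays 1 and 2 and low on 5 and 6 in the probe sets representing them. In another tested probe set of Mcm2, smoke arrays 1 and 2 were at 6.45 and 8.90 and arrays 5 and 6 at 8.25 and 8.23.

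Of the clamp loader genes, Rfc5 measured 8.41, 8.19, 8.51 and 8.48 in controls and 8.33 at the lowest, 8.58 at the median and 9.11 at the highest after smoke, with 3 smoke arrays above every control and 0 below. The change of Rfc5 was 0.23 ± 0.20 (SE) (adjusted p = 0.718). Rfc4 measured 7.63, 7.76, 7.78 and 6.95 in controls and 7.09 at the lowest, 7.56 at the median and 9.62 at the highest after smoke. Smoke arrays 2 and 1 stood at 9.62 and 8.41, above every control, while the other 4 smoke arrays fell in the control range. The change of Rfc4 was 0.37 ± 0.46 (SE) (adjusted p = 0.803), and 0.030 without smoke array 2. Rfc3 measured 6.51, 7.09, 7.08 and 6.82 in controls and 4.51 at the lowest, 7.06 at the median and 7.32 at the highest after smoke. Smoke array 2 was the lowest here, and was the highest for Rfc4 in the probe set representing it. In the other tested probe set of Rfc4, with a change of -0.039 ± 0.24 (SE), smoke array 2 was the lowest of all arrays, at 6.71. Like Pcna, Rfc3 was lower on smoke arrays 1 and 2 (6.07 and 4.51) than on 5 and 6 (7.28 and 6.97). The change of Rfc3 was -0.32 ± 0.52 (SE) (adjusted p = 0.855).

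Tipin, which with Timeless steadies a stalled fork, was the gene with the smallest p. Its level was 9.10, 9.38, 9.42 and 9.08 in controls and 9.53 at the lowest, 9.66 at the median and 9.86 at the highest after smoke. The lowest smoke array, at 9.53, was above the highest control, at 9.42. Tipin's change was 0.42 ± 0.16 (SE), a fold of 1.33 (95% interval 1.04 to 1.71), and it did not pass (adjusted p = 0.421). When any 1 array was left out the change ran from 0.36 to 0.47. Rpa2, of the complex that coats single-stranded DNA, was at 0.19 ± 0.35 (SE), with 4 of 6 smoke arrays above every control and 1 below.

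Of the genes that join Okazaki fragments, Fen1, the flap nuclease, was at 11.99 to 12.35 in controls. It was at 12.90, 12.80, 12.21 and 12.93 on smoke arrays 1 to 4 and at 10.91 and 11.48 on smoke arrays 5 and 6. Those last 2 lay below every control in the probe set representing Fen1, and the change over all 6 was 0.034 ± 0.37 (SE) (adjusted p = 0.984). Another Fen1 probe set, below the filter, ran the other way. There smoke arrays 5 and 6, at 7.19 and 7.40, were above every control (at most 6.95). Lig1, the ligase that seals the nicks, was at 0.17 ± 0.29 (SE), with smoke arrays 5 and 6 below every control.

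Nucleotide supply held the largest change in the set. Rrm2, the small subunit of ribonucleotide reductase, which limits the making of deoxynucleotides, was at 9.20, 9.80, 10.06 and 9.00 in controls and 9.44 at the lowest, 10.63 at the median and 11.90 at the highest after smoke. Smoke arrays 1 to 4 were above every control and smoke arrays 5 and 6, at 9.54 and 9.44, within the control range. The change was 1.08 ± 0.47 (SE), a fold of 2.11 (95% interval 1.05 to 4.27), and did not pass (adjusted p = 0.475). Rrm1, the large subunit, was at 9.43, 9.54, 9.65 and 9.43 in controls and 9.45 at the lowest, 9.69 at the median and 10.05 at the highest after smoke, with 3 smoke arrays above every control. Its change of 0.19 ± 0.17 (SE) (adjusted p = 0.736) was smaller than that of Rrm2, a difference that was not tested. Dut, which clears dUTP, was at 8.38, 8.68, 8.62 and 8.40 in controls and 6.92 at the lowest, 8.54 at the median and 9.36 at the highest after smoke. It was lowest on smoke array 1 and highest on smoke arrays 5 and 6, at 9.36 and 9.07, and its change was -0.14 ± 0.41 (SE) (adjusted p = 0.921). The other tested probe set of Dut did not show this order and gave 0.73 ± 0.34 (SE). There smoke array 1 was the highest of all arrays, at 7.81, and smoke array 5 the lowest smoke array, at 6.47.

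Genes of chromatin upkeep at the fork had a median of 0.32. Uhrf1, which brings the maintenance DNA methyltransferase to newly copied DNA, was at 7.61, 7.59, 7.83 and 7.25 in controls and 6.93 at the lowest, 7.85 at the median and 9.09 at the highest after smoke. Its smoke array 2 stood at 9.09 and the next at 7.97. The change was 0.31 ± 0.35 (SE) (adjusted p = 0.789). Chaf1b, of the histone loading complex CAF-1, was at 0.32 ± 0.45 (SE) with overlapping groups.

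The cyclin E genes drive entry into S phase. Ccne1 was at 7.51, 7.21, 8.18 and 7.72 in controls and 7.37 at the lowest, 8.85 at the median and 9.47 at the highest after smoke. As for Mcm2 and Rrm2, smoke arrays 1 to 4 exceeded every control and arrays 5 and 6 did not, in the probe sets representing these genes. The change was 0.87 ± 0.42 (SE), a fold of 1.83 (95% interval 0.976 to 3.44) (adjusted p = 0.512). Ccne2 was at 6.71, 6.61, 7.50 and 7.39 in controls and 6.99 at the lowest, 7.50 at the median and 8.13 at the highest after smoke, with 3 smoke arrays above every control and the highest on array 2. Ccne2 had a change of 0.46 ± 0.28 (SE) (adjusted p = 0.598). Slbp, which binds the stem-loop of histone messages, was at 9.91, 10.12, 10.40 and 9.98 in controls and 9.55 at the lowest, 10.18 at the median and 10.45 at the highest after smoke, and was low on smoke arrays 1 and 2. Its change in this probe set, which represents it, was -0.049 ± 0.21 (SE) (adjusted p = 0.952). The other tested probe set of Slbp gave 0.55 ± 0.35 (SE). There smoke arrays 1 and 2, at 9.40 and 8.36, were above every control (at most 7.99).

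**Figure D2:**
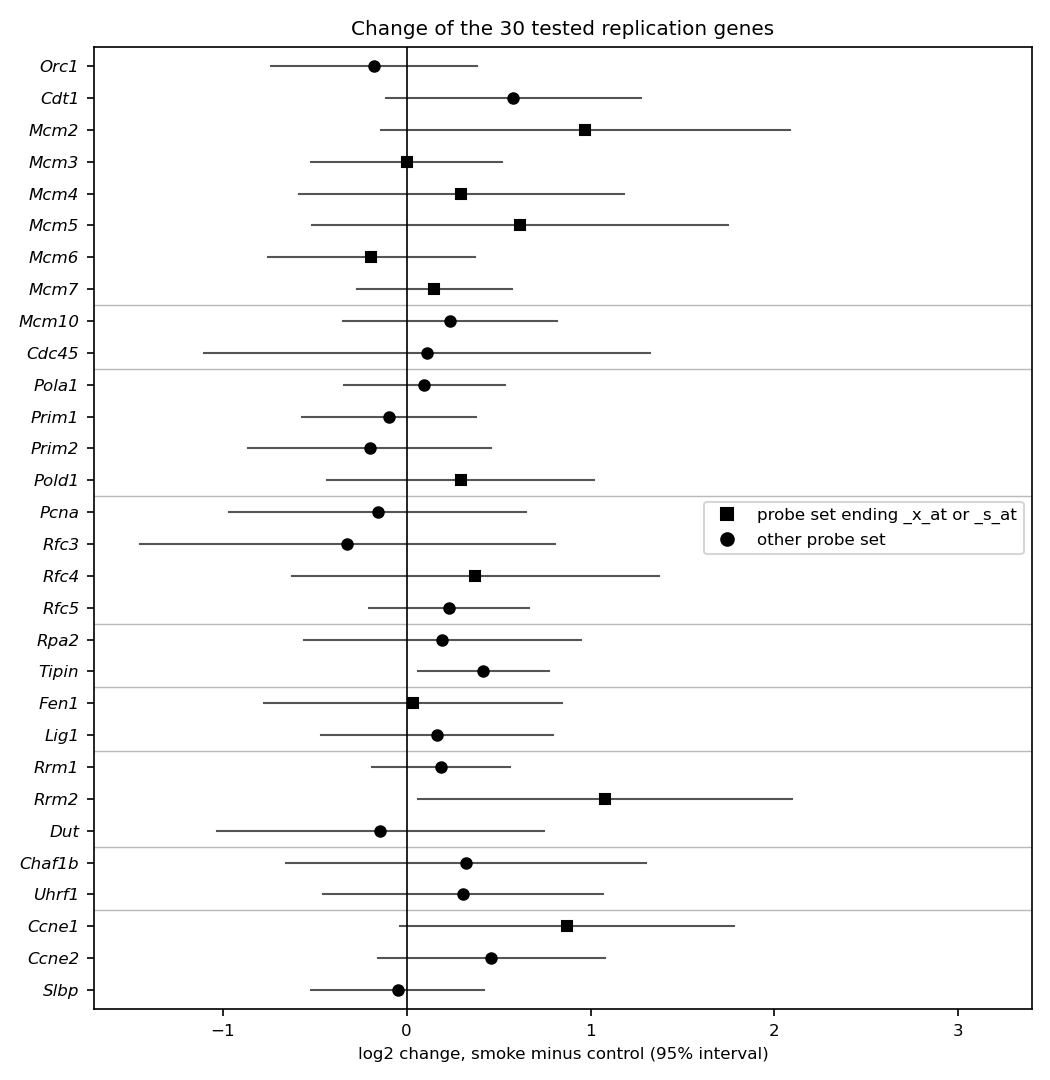
Log2 change, smoke minus control (x axis), of the 30 tested genes (y axis, by role) with its 95% interval from limma, not adjusted for the number of tests. Squares are probe sets ending _x_at or _s_at and circles all others. The intervals of Tipin (0.062 to 0.77) and Rrm2 (0.064 to 2.09) alone lie above 0.

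The 6 genes below the filter were tested singly by an exact two-sided permutation test of 4 against 6 arrays, whose smallest possible p is 0.00476. Tk1, the thymidine kinase, was at 4.67 ± 0.50 (SD, n = 4) on control and 5.74 ± 1.34 (SD, n = 6) on smoke arrays (exact p = 0.181). Tyms, thymidylate synthase, was at 6.16 ± 0.65 (SD, n = 4) and 6.59 ± 0.67 (SD, n = 6) (exact p = 0.357), and Cdc6 at 6.26 ± 0.32 (SD, n = 4) and 6.37 ± 0.78 (SD, n = 6) (exact p = 0.800). The GINS genes Gins1 and Gins2 and the polymerase epsilon gene Pole had exact p-values of 0.681, 0.943 and 0.567. Pole was at the floor of log2 3.98 on 7 of 10 arrays, so its level there is a bound.

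The mean log2 level over the 30 genes was 8.87, 8.92, 9.03 and 8.81 on the 4 controls. On smoke arrays 1 to 6 it was 9.40, 9.52, 9.19, 9.09, 8.77 and 8.80. Smoke arrays 1 and 2 were thus the highest and smoke arrays 5 and 6 the lowest of all 10. Smoke array 2 held the highest value of 12 of the 30 genes and smoke array 1 that of 8, while these arrays held the highest value of 19.2% and 25.6% of all genes. Taken in pairs, the smoke arrays stood in the same order by actin ratio.

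**Figure D3:**
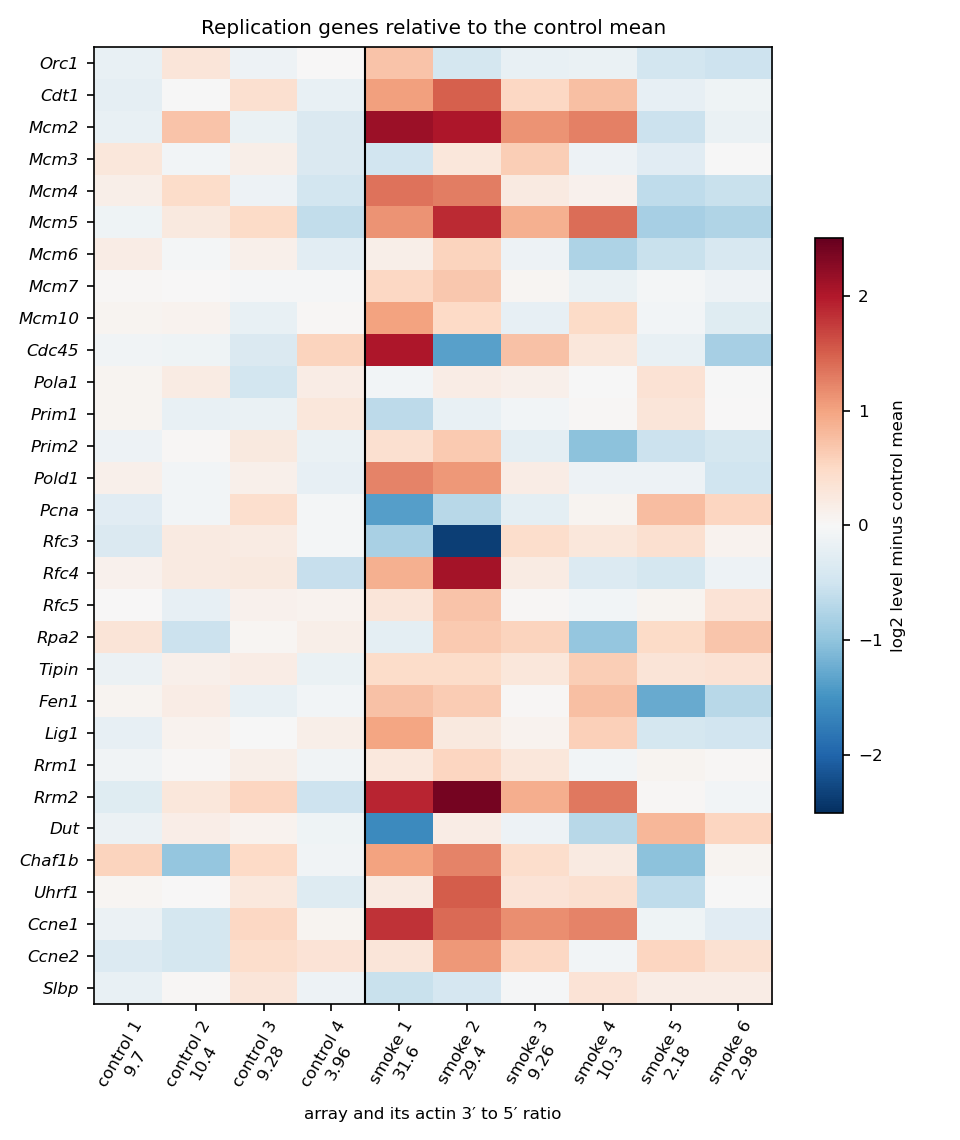
Log2 level of the 30 tested genes (y axis, by role) minus the gene's control mean (colour, red higher and blue lower) on each array (x axis, with its actin 3′ to 5′ ratio under the name; the vertical line parts controls from smoke arrays). The probe sets representing Mcm2, Mcm5, Rrm2 and Ccne1 are red on smoke arrays 1 to 4 and pale or blue on arrays 5 and 6. Those representing Pcna and Dut show the reverse on arrays 1, 5 and 6.

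Leaving out any 1 array moved many of these changes, although none passed in any such fit. Uhrf1 ran from 0.066 without smoke array 2 to 0.49 without smoke array 5, and Mcm5 from 0.36 to 0.91 on leaving out the same arrays. Mcm10 was at 0.083 and Pold1 at 0.11 without smoke array 1, and Mcm7 at 0.046, Rfc5 at 0.14 and Rrm1 at 0.12 without smoke array 2. Mcm6 stood at -0.34 without smoke array 2 and -0.076 without smoke array 4, and Prim2 at -0.37 and -0.037. Rfc3 was at 0.086 without smoke array 2, Dut at 0.15 and Slbp at 0.051 without smoke array 1, each with its sign changed. Rrm2 ran from 0.81 to 1.31, Mcm2 from 0.74 to 1.27, Ccne1 from 0.70 to 1.08 and Cdt1 from 0.39 to 0.74.

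Smoke arrays 5 and 6 share no number with a control array, and a fit without them was made on that ground, with earlier results of these data known. They are also the arrays on which Mcm2, Mcm5, Rrm2 and Ccne1 were not high in the probe sets representing them. The calls that follow thus describe smoke arrays 1 to 4 and are no independent support for a smoke difference. Of 29 tested genes, 4 were called higher and 0 lower: Mcm2 by 1.63 ± 0.31 (SE), Rrm2 by 1.63 ± 0.34, Ccne1 by 1.36 ± 0.26 and Mcm5 by 1.32 ± 0.28 (limma, adjusted p = 0.0175, 0.0286, 0.0175 and 0.0287). In that fit 3.17% of all genes were higher and 2.46% lower. In 6 of the 29, these 4 with Cdt1 and Tipin, all 4 smoke arrays were above all controls, and in 0 below, beside 11.1% and 7.81% of all genes. Without smoke arrays 1 and 2 in their place, 0 of 30 genes were called and the median was 0.076. In that fit 0.0752% of all genes were higher and 0.887% lower, and their median was 0.027. With the actin ratio (log2) added to the model of all 10 arrays, 2 of 30 rose, Rrm2 by 0.94 ± 0.19 and Mcm2 by 0.82 ± 0.19 (limma, adjusted p = 0.0264 and 0.0467), and 0 fell, where 1.13% and 1.64% of all genes did.

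Smoke arrays 3 and 4 had actin ratios within the control range, and were set against the controls alone after the data had been seen. Both are among the arrays on which Ccne1, Mcm2, Mcm5 and Rrm2 had been seen above every control in the probe sets representing them. The values that follow are thus no independent support for a smoke difference. Ccne1 rose by 1.19 ± 0.28 (limma, adjusted p = 0.0484), where 1.43% of all genes rose and 2.65% fell, and Mcm2 was at 1.19 ± 0.28 (adjusted p = 0.0504). The groups did not overlap for 9 of 30 genes that were higher, among them Mcm5 and Rrm2, and for 1 that was lower, Prim2, beside 16.2% and 14% of all genes.

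The arrays high in Xist were 2 controls and smoke arrays 5 and 6, so a difference between classes and one between those smoke arrays and the rest cannot be told apart. The difference in the smoke change between classes was fitted for all genes, a comparison also added after seeing the data, and 0 of 30 members and 0.00747% of all genes passed. In the probe set representing it, as for the genes that follow, Fen1 had a log2 change of 0.60 among arrays low in Xist and -1.04 among those high in it (limma, adjusted p of the difference = 0.180). For Mcm2 the values were 1.81 and -0.53 (adjusted p = 0.198), and for Pcna -0.63 and 0.72 (adjusted p = 0.322). Tipin was at 0.44 and 0.35. The medians over the 30 genes were 0.34 and -0.040.

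Several of the genes with the widest spread were measured by probe sets that Affymetrix marks as able to bind other transcripts (names ending _x_at or _s_at), as were 11 of the 30 tested genes. Over the 9 tested _x_at probe sets of the set, smoke arrays 1 and 2 exceeded smoke arrays 5 and 6 by a median of 1.65, and all 9 were above 0. Over all 1762 tested _x_at probe sets the median was 0.68, with 74.8% above 0. Over the 5 _s_at probe sets of the set the median was 0.68, with 5 above 0, and over all such probe sets 0.15. Over the 7 _a_at probe sets, whose ending marks alternative transcripts of 1 gene, it was 0.93, with 4 above 0, against -0.23 over all such probe sets. Over the 33 probe sets of the set with the plain ending _at the median was 0.12 with 18 above 0, and over all such probe sets 0.0092. Whether other transcripts were bound was not tested.

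**Figure D4:**
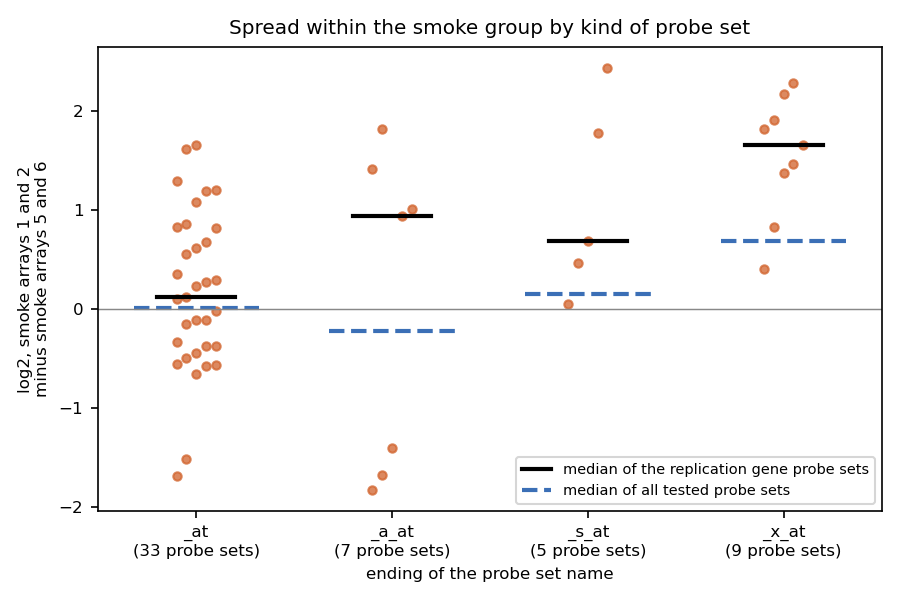
Mean log2 level on smoke arrays 1 and 2 minus that on smoke arrays 5 and 6 (y axis) for each tested probe set of the replication genes (orange points), by the ending of its name (x axis). Black bars are medians of these probe sets and dashed blue bars medians of all tested probe sets: 1.65 against 0.68 for _x_at, 0.68 against 0.15 for _s_at, 0.93 against -0.23 for _a_at and 0.12 against 0.0092 for _at.

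Of 19 genes with more than 1 tested probe set, 8 had probe sets whose changes differed in sign. A plain _at probe set of Rrm2 gave 0.64 ± 0.31. There smoke arrays 1, 2, 3 and 6 were above every control (at most 7.55), and arrays 4 and 5 (7.45 and 6.93) were not. One of Ccne1 gave 0.67 ± 0.29, with 5 of 6 above, smoke array 5 (7.32 against at most 6.94 in controls) among them. The plain _at probe set of Mcm2 gave 0.28 ± 0.40, with smoke array 1 now the lowest of all smoke arrays at 6.45. Its smoke arrays 5 and 6, at 8.25 and 8.23, were above every control. The other probe sets of Mcm5 gave 0.61 ± 0.30 and -0.0050 ± 0.29, each with smoke array 5 (6.91 and 7.08) above every control. The other tested probe set of Cdt1 gave 0.70 ± 0.26, with 5 of 6 smoke arrays above every control (at most 7.35). Among them were smoke array 5, the highest of all arrays, and smoke array 6, at 7.56. Cdt1 was thus not low on these arrays in both probe sets. None of these probe sets passed in the fit over 10 arrays. Representing each gene without _x_at and _s_at probe sets, the median over the 30 was 0.14 and 17 were above 0.

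The promoters shown are of Mcm5, Mcm2, Rrm2 and Ccne1, high together on smoke arrays 1 to 4 in the probe sets representing them. That of Mcm6, which did not share this pattern, is also shown. Each is the 250 bases before the start, from RefSeq on GRCm38.p6, read 5′ to 3′ on the gene's strand. Windows were found for 30 of the 37 genes. Capitals mark the E2F motifs TTTCGCGC, TTTCCCGC, TTTGGCGC and TTTGCCGC and the CCAAT box, on either strand, and overlapping matches run together as 1 stretch of capitals.
Mcm5 (chr8:75109259-75109508, plus strand): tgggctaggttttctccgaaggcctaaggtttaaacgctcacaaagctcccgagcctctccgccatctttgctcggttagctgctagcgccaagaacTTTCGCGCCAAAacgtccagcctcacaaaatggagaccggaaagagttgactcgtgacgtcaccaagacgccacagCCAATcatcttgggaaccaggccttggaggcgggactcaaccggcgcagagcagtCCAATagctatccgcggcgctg
Mcm6 (chr1:128359706-128359955, minus strand): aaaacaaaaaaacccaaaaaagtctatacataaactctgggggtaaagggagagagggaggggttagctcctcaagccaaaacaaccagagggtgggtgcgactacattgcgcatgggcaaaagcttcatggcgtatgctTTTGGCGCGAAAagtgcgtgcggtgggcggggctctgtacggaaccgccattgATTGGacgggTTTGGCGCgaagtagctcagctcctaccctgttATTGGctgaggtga
Mcm2 (chr6:88898781-88899030, minus strand): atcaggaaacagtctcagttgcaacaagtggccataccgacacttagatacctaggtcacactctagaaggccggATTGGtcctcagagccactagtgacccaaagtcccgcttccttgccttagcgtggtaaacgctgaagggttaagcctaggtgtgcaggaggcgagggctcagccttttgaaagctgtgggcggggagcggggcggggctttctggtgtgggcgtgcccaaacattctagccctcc
Rrm2 (chr12:24708004-24708253, plus strand): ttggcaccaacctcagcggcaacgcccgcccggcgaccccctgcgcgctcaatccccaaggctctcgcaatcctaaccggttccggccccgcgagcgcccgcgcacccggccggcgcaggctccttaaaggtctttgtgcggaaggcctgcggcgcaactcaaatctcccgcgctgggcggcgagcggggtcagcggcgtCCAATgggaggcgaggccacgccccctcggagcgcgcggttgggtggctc
Ccne1 (chr7:38107491-38107740, minus strand): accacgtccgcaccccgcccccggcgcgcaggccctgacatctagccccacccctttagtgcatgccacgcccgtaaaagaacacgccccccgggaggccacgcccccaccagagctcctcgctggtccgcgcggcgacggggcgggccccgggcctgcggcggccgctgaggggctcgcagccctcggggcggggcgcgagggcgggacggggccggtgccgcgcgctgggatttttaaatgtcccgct

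Mcm5 held 2 E2F matches, which overlap, and Mcm6 held 3, while none of these 4 E2F motifs was in the shown windows of Mcm2, Rrm2 and Ccne1. The presence of these letters in the shown windows thus did not part these 4 genes from Mcm6. Cdt1, high on smoke arrays 1 to 4 in the probe set representing it, was not shown. It held 1 E2F match, after its start and so outside the bases shown for the others. At least 1 of the E2F motifs was found in 12 of 35 windows of the set (34.3%; windows from 250 bases before to 50 after the start), and in 2.26% of all 32851 windows. TTTCGCGC alone was in 20% against 0.323%, TTTCCCGC in 14.3% against 1.07% and TTTGGCGC in 14.3% against 0.514%. CCAAT was in 57.1% against 37.4%, and TTTGCCGC in 0% against 0.441%. A match is a stretch of letters and not a binding site.

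Other genes of the cell cycle were described from lists. Of 42 further replication genes tested, 0 passed in either direction, the median change was -0.0024 and 21 were above 0. The 3 with the smallest p were Pclaf, a Pcna partner, at 0.49 ± 0.18, Ticrr, a helicase activator, at 1.00 ± 0.46, and Rpa1, the large subunit of the single-strand binding complex, at 0.54 ± 0.26. Pclaf was above every control on all 6 smoke arrays.

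Of 31 regulators of E2F and the G1 to S step, 0 passed and the median was 0.083. E2f7, a repressing E2F, was at 0.77 ± 0.23 (adjusted p = 0.258), Mycn at 1.28 ± 0.37 (adjusted p = 0.259) and Cdkn1a, the p21 inhibitor of cyclin kinases, at -1.45 ± 0.50 (adjusted p = 0.370). Cdkn1a was at 9.79, 9.94, 9.50 and 9.39 on smoke arrays 1 to 4, below every control (11.32 to 12.04), and at 11.86 and 11.75 on arrays 5 and 6, within the control range. In the probe sets representing them, Mcm2, Rrm2 and Ccne1 were above every control on the first 4 of these arrays and not on the last 2. Their other tested probe sets did not show this split.

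Of 22 genes of replication stress and fork repair, 0 passed and the median was 0.033. Rad54l was at -0.997 ± 0.37, below every control on all 6 smoke arrays, Fancd2 at -0.47 ± 0.22 and Blm at 0.69 ± 0.35. Of 25 genes of G2 and M phase, 0 passed, the median was 0.48 and 25 were above 0, where all genes had a median of 0.056 and 56.9% above 0. Prc1, which bundles the spindle midzone, was at 0.93 ± 0.23 (adjusted p = 0.146) and higher on all 6 smoke arrays than on any control, Mki67 was at 0.94 ± 0.28 (adjusted p = 0.268) and Cenpf, a kinetochore protein, at 0.70 ± 0.22 (adjusted p = 0.299). Cenpa, a centromeric histone named after its values were seen, was the other gene of this list above every control on all 6 smoke arrays, at 0.58 ± 0.19 (adjusted p = 0.353). The mean level of the 25 genes was 7.93 to 8.14 in controls and 8.28 to 8.98 after smoke.

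Markers of other cells also differed between smoke arrays. The mean log2 level of 6 endothelial markers was 10.73 and 10.56 on smoke arrays 1 and 2, 12.20 and 12.15 on smoke arrays 5 and 6, and 11.38 to 11.88 in controls. That of 6 fibroblast markers was 11.80 and 12.07, then 12.80 and 12.70, against 12.14 to 12.56. Thymocyte markers, of a tissue rich in dividing cells next to the lung, had a mean of 8.63 on smoke array 1 and 7.65 to 8.11 on the other smoke arrays, and of 7.03 to 8.61 in controls. The linear intensity was also summed over all measured markers of a list, tested or not. For thymocytes it was 1577 to 4134 in controls and 1912 to 4048 after smoke. For endothelium it was 24774 to 33932 in controls and 18181 to 36688 after smoke, and for fibroblasts 41765 to 51220 and 36865 to 56122. Of 10 thymocyte, 6 endothelial and 6 fibroblast markers, 0 were at the floor on every array. Over 7 tested thymocyte markers the median change was 0.27, and over 5 B cell markers 0.80, with 0 passing in either list. Of 6 heart muscle markers the mean was 7.80 and 7.99 on smoke arrays 1 and 2, 10.05 and 9.38 on smoke arrays 5 and 6, and 8.54 to 9.58 in controls. Of 3 tested erythroid markers it was 10.82 on smoke array 1, 9.23 to 10.14 on the other smoke arrays and 9.24 to 10.32 in controls. The marker list with calls was that of neutrophil precursors, where 0 of 6 tested genes rose and 2 fell: S100a9 by 2.00 ± 0.28 (SE) and S100a8 by 1.60 ± 0.24 (limma, adjusted p = 0.00423 and 0.00777), each below every control on all 6 smoke arrays. The summed intensity of that list was 38752 to 50445 in controls and 16758 to 27058 after smoke. This sum is made mostly of S100a8, S100a9 and Chil3, at log2 levels of 14.12, 13.53 and 13.78 in controls. It therefore does not describe the list as a whole. Among the other tested genes Ngp was at 0.0012, Ltf at -0.064, Chil3 at -0.40 and Camp at -0.84, and none of them passed. The part of these cells in the replication gene values was not tested.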

How the data were processed

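Per the labels' protocols, Trizol RNA of each lung was amplified into labelled cRNA for 1 array. The authors deposited 1 linear intensity per probe set and array, whose summarising program is not given in the sources used here. Each array's trimmed mean (2% off each end) lay between 499.5 and 499.9. From these values log2 was taken (the 1 value of 0 set to the smallest positive value), then quantile normalization was run across the arrays, with a floor at the 10th percentile (log2 3.98).

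Of 45101 probe sets, 64 controls were left out and the upper 60% by mean, 27022, were tested with limma 3.58.1 in R 4.3.3 (lmFit, eBayes with trend, two-sided, Benjamini-Hochberg, threshold 0.05). Genes were named by the platform annotation. The number of arrays limits the precision. The 37 genes and all lists were chosen with earlier results of these data known. By rule, values by array are given for the 15 genes with the smallest p and the lowest change below 0 in each role, up to 5, and the 3 smallest p of each further list; Cdc45, Pcna, Fen1 and Orc1 were described beyond that after their values were seen. The fit was tested on simulated data. Plots were drawn with matplotlib 3.10.9.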

Additional observations from a re-analysis of the deposited data

Results flagged for a closer look

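In the smoke group Orc1 stood apart on smoke array 1, at a log2 level of 9.31, while the other 5 smoke arrays lay between 8.09 and 8.43 and the controls between 8.41 and 8.90. Pole stood apart on smoke array 2, at 5.13, with the other 5 smoke arrays at 4.10 or lower and all controls at the floor of 3.98. In each case the gap to the nearest smoke array was larger, relative to the range of the group, than Dixon's 95% critical value allows. Chance passes that value in about 1 in 20 groups. Both groups of the 36 measured genes were screened, so some such flags would arise by chance. For Pole, smoke arrays 4, 5 and 6 were themselves at the floor, which sets the lower end of the range.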

How the results depend on the processing

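At a threshold of 0.05, 0 of the tested members passed in either direction under every normalization, floor, filter and variance setting tried, with array weights, with Xist as covariate, with the mean of a gene's probe sets, without _x_at and _s_at probe sets, by the rule of the design text, and with any 1 array left out. The median with 1 array left out ran from 0.10 to 0.27. It was 0.45 without smoke arrays 5 and 6, when 4 members were called higher and 6 lay wholly above the controls, and the same counts and median came from the fit with the replicate block on arrays 1 to 4 of each group. Deviations of same-numbered arrays correlated at -0.036, 0.071, -0.074 and 0.084, so the numbers are not taken to pair the mice. The actin ratio as covariate gave 2 called higher. Smoke arrays 3 and 4 alone gave 1 called higher, with 9 wholly above and 1 wholly below. Median centring left 0 wholly above (1.28% of all genes). There was 1 wholly below both without smoke arrays 1 and 2 (4.03%) and with the mean of a gene's probe sets (3.02%). Among arrays low in Xist 7 of 29 lay wholly above (17.8%), and among those high in it 8 lay above and 9 below (31% and 27%), with 0 called in both. For the 19 genes given by array, 41 of the alternative values changed sign without being called, and 11 became called with the sign kept. The settings of smoke arrays 3 and 4 and of Xist classes were added after seeing the data. With 4 and 6 arrays, small changes cannot be resolved.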
